A study of Mus musculus with 6 samples.

Results

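Imprinted genes are transcribed mainly from the copy inherited from one parent, and 42 of them, with Peg10 as the leading member, were followed here in spermatogonial stem cells, the self-renewing cells behind sperm production, grown in culture from mouse testes. The members were taken by symbol from the deposited gene table, which holds 24495 symbols, and all 42 were found in it. They comprise 22 paternally expressed genes, 15 maternally expressed genes and 5 whose imprinting depends on the isoform. The cells came from testes of DBA2 mice at postnatal days 5 to 8 and were kept in culture for 2 weeks with 2 uM EPZ5676 or with 0.2% ethanol as the control. EPZ5676 (pinometostat) is a small-molecule inhibitor of DOT1L, the methyltransferase of lysine 79 on histone H3. There were 3 EPZ5676 libraries and 3 ethanol libraries, each numbered 1 to 3. The series calls them biological triplicates, but no label says whether they came from separate animals or cultures, whether animals were pooled or whether feeder cells were present, so p-values may reflect technical spread only.

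Imprinted genes lie in clusters, each governed by a control region whose DNA methylation is set in the egg or in the sperm line. Most such regions are methylated on the maternal copy, while those of the Dlk1-Meg3 and Igf2-H19 clusters are methylated on the paternal copy. Male germ cells erase the inherited pattern and lay down the paternal one on both copies, so these cells normally carry paternal-type marks throughout. DOT1L and its histone mark accompany active transcription. The counts carry no parental information, and the classes used below are those known from mouse tissues, mostly outside the germline.

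The summed gene counts of a library ran from 19866337 to 54645903 under EPZ5676, with replicate 2 the deepest, and from 17784332 to 21046473 under ethanol. Levels are in CPM, the read count relative to library size, scaled by the TMM method. All 21 markers of undifferentiated spermatogonia were above 1 CPM on average, with library medians of 94.3 to 118 CPM under EPZ5676 and 87.4 to 111 CPM under ethanol. Fibroblast markers were present in every library, with 23 of 25 above 1 CPM on average and none at 0. Their summed level was 1698, 2290 and 1862 CPM in EPZ5676 replicates 1, 2 and 3, against 1660, 3160 and 1820 CPM in ethanol replicates 1, 2 and 3, so the replicate 2 libraries were highest in both groups. The Sertoli, Leydig, macrophage and endothelial lists each summed to 52.4 CPM or less in every library, and the Leydig receptor gene Lhcgr was at 0. The peritubular and smooth muscle list summed to 66.7 to 108 CPM under EPZ5676 and 66.6 to 168 CPM under ethanol. In bulk RNA, fewer cells of a type and less RNA per cell cannot be told apart.

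Levels of the imprinted genes spanned several orders of magnitude. The mean over all libraries was at least 100 CPM for 5 members, at least 10 CPM for 25 and above 0 but under 1 CPM for 5. Snrpn was listed at 0 in all 6 libraries, and so was Snurf, which is encoded on the same transcript. The 2 symbols overlap each other and Snhg14, how such reads were counted is not given, and no level is read from either. Per kb of annotated exon and over all libraries, H19, a long non-coding RNA, was highest, at 47.8 CPM per kb under EPZ5676 and 54.3 CPM per kb under ethanol. Igf2r, the receptor that clears the growth factor IGF2, followed at 47.8 CPM per kb under EPZ5676 and 41.8 CPM per kb under ethanol. Mcts2, a retrogene inside an intron of H13, was at 32.1 and 30.3 CPM per kb under EPZ5676 and ethanol. Peg10 ranked 7th of 42, at 14.0 CPM per kb under EPZ5676 and 8.61 CPM per kb under ethanol. Next below it came Gnas, at 10.2 and 10.4 CPM per kb, and H13, at 10.03 and 9.98 CPM per kb, under EPZ5676 and ethanol in that order. Reads of the Mcts2 retrogene may be shared with its parent Mcts1, so its level is uncertain.

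**Figure D1:**
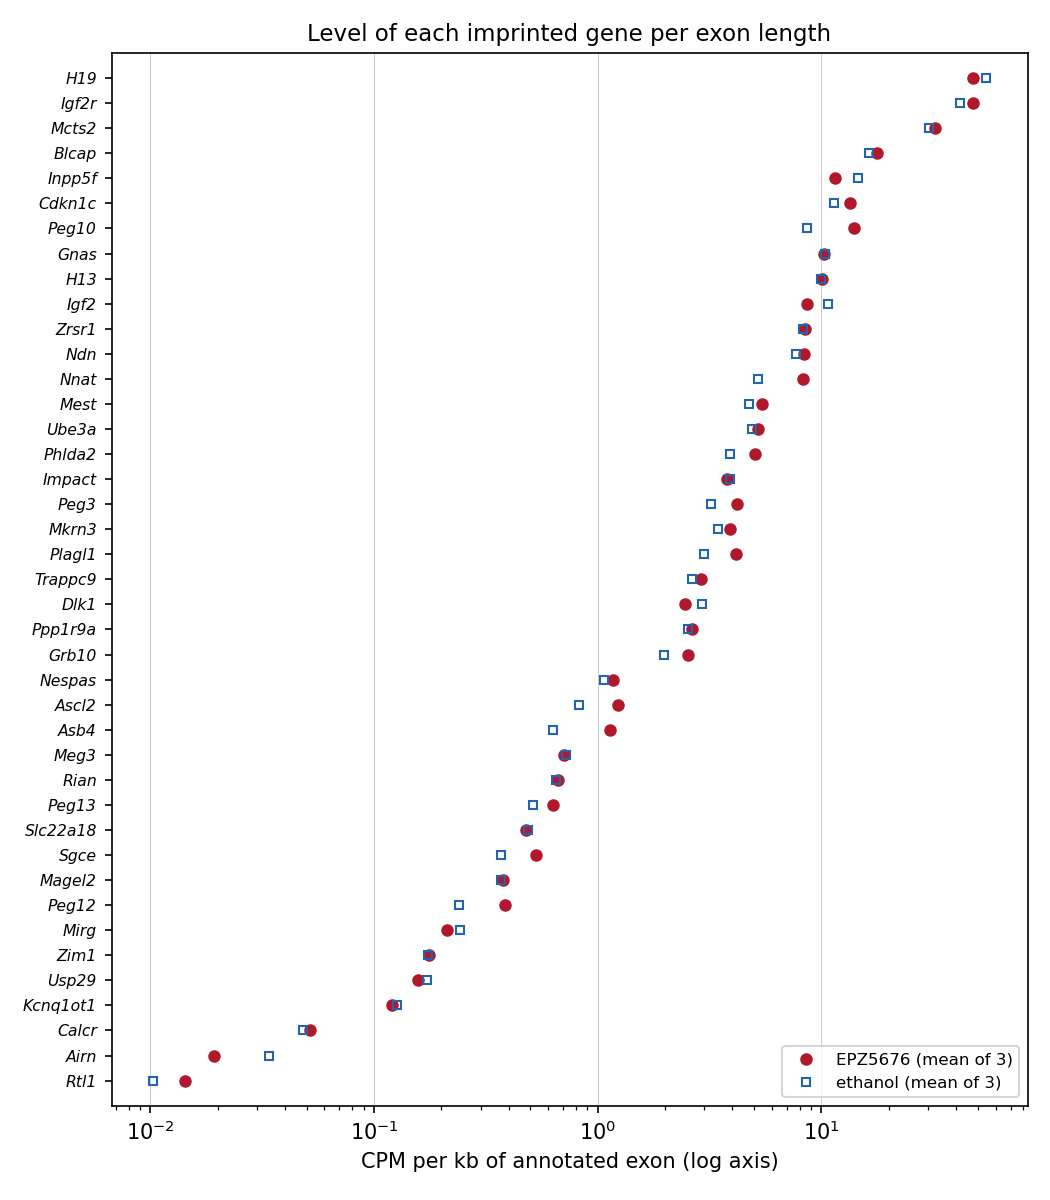
Mean level of 41 imprinted genes as CPM per kb of annotated exon on a log axis, for EPZ5676 (filled circles, 3 libraries) and ethanol (open squares, 3 libraries), ordered by the mean of all 6 libraries. H19 and Igf2r are highest, and Peg10 lies at 14.0 under EPZ5676 and 8.61 under ethanol. Snrpn, listed at 0, is not drawn.

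The lowest members were Calcr, the calcitonin receptor gene, with 3 to 14 counts in EPZ5676 libraries and 1 to 5 in ethanol libraries, Airn, the non-coding RNA antisense to Igf2r, with 1 to 6 and 2 to 3 counts, and Rtl1, a retrotransposon-derived gene like Peg10, with 0 to 7 and 0 to 2 counts. Calcr, Airn, Rtl1 and Snrpn did not pass the filter on low counts, which left 38 of the 42 to be tested: 19 paternally expressed, 14 maternally expressed and 5 isoform-dependent.

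Promoter windows from RefSeq (GRCm38.p6, 250 bases before to 50 bases after the first listed start) were at hand for 33 members. Peg10, Sgce, H19, Cdkn1c, Rtl1, Impact, Nespas, Peg13 and Trappc9 had none, so the values below leave them out. Imprinting acts through methylation of CpG dinucleotides, and the members' windows held a median of 15 CpGs, against 7 over 27025 genes. A window with at least 15 CpGs was found for 17 of the 33, against 35.2% of all genes. By class, 7 of 12 windows of maternally expressed members had at least 15 CpGs (58.3%, median 21.5 CpGs). Among paternally expressed members it was 5 of 16 (31.2%, median 10.5 CpGs), a share below that of all genes. Each window takes only the first listed start, and a gene may have others. Whether the windows cover the control regions or the imprinted starts was not tested, so these shares do not describe imprinted promoters as such. The hexamer TGCCGC, which the imprint-protecting zinc finger protein ZFP57 recognises when it is methylated, was present on either strand in 7 windows (21.2%, against 11.6% of all genes). The windows of members were also richer in G and C, with a median of 57.3% against 52.7%, and the shares of the hexamer were not matched for this. The sequences printed are the gap between the divergent first listed starts of Peg3 and Usp29, since these neighbours share a promoter region and their levels are set side by side, and the 200 bases before Nnat and Plagl1, the members of highest fold change outside the Peg10 cluster among those described in full. Capitals mark CpGs, of which the stretches hold 5, 11 and 15.
Peg3-Usp29 gap (chr7:6730420-6730582, plus strand): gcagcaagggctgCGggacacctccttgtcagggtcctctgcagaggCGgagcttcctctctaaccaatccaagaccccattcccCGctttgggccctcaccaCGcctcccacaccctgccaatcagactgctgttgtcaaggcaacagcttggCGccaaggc
Nnat upstream (chr2:157559878-157560077, plus strand): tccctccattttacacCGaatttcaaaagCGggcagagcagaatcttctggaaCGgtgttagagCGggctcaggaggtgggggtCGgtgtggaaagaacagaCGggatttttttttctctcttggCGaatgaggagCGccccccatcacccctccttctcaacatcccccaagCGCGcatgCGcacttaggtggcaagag
Plagl1 upstream (chr10:13090632-13090831, plus strand): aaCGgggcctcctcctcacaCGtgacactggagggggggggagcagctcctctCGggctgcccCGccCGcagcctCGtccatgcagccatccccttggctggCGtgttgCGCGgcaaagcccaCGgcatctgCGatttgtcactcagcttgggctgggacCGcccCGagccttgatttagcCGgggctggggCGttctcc

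EPZ5676 and ethanol were compared across all 14855 genes that passed the filter. After Benjamini-Hochberg adjustment at a threshold of 0.05, edgeR's quasi-likelihood test without the replicate number as a block called 0 of the 38 tested members, against 0% of all genes. An unadjusted p under 0.05 was reached by 5 members, against 7.41% of all genes: 4 higher (Peg10, Peg3, Nnat and Grb10), against 3.84%, and 1 lower (Inpp5f), against 3.57%. DESeq2 called 1 member, Peg10, against 0.337% of all genes. The block was added because libraries of equal number deviated together, though replicates 1 and 3 also did so across numbers. With the block, edgeR called 1 member, Peg10, against 0.653% of all genes. That fit put 13 members at an unadjusted p under 0.05, against 18.5% of all genes: 9 were higher, against 9.01%, and 4 were lower, against 9.51%. Log2 fold changes were positive for 28 of the 38 members and for 48.3% of all genes, and the median was 0.09, against -0.01 over all genes. The 3 EPZ5676 libraries lay above the 3 ethanol libraries for 6 members, against 7.22% of all genes, and below them for 1, against 7.64%. The 6 were Peg10, Nnat, Ndn, Mkrn3, Peg12 and Mcts2, all paternally expressed, and the 1 was Inpp5f. Log2 fold changes of Ndn, Mkrn3, Peg12 and Mcts2 were only 0.11, 0.18, 0.66 and 0.08. Their unadjusted p in the unblocked edgeR fit was 0.279, 0.206, 0.0681 and 0.407. Positive log2 fold changes were no more frequent among tested paternally expressed members (73.7%) than among maternally expressed ones (78.6%).

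**Figure D2:**
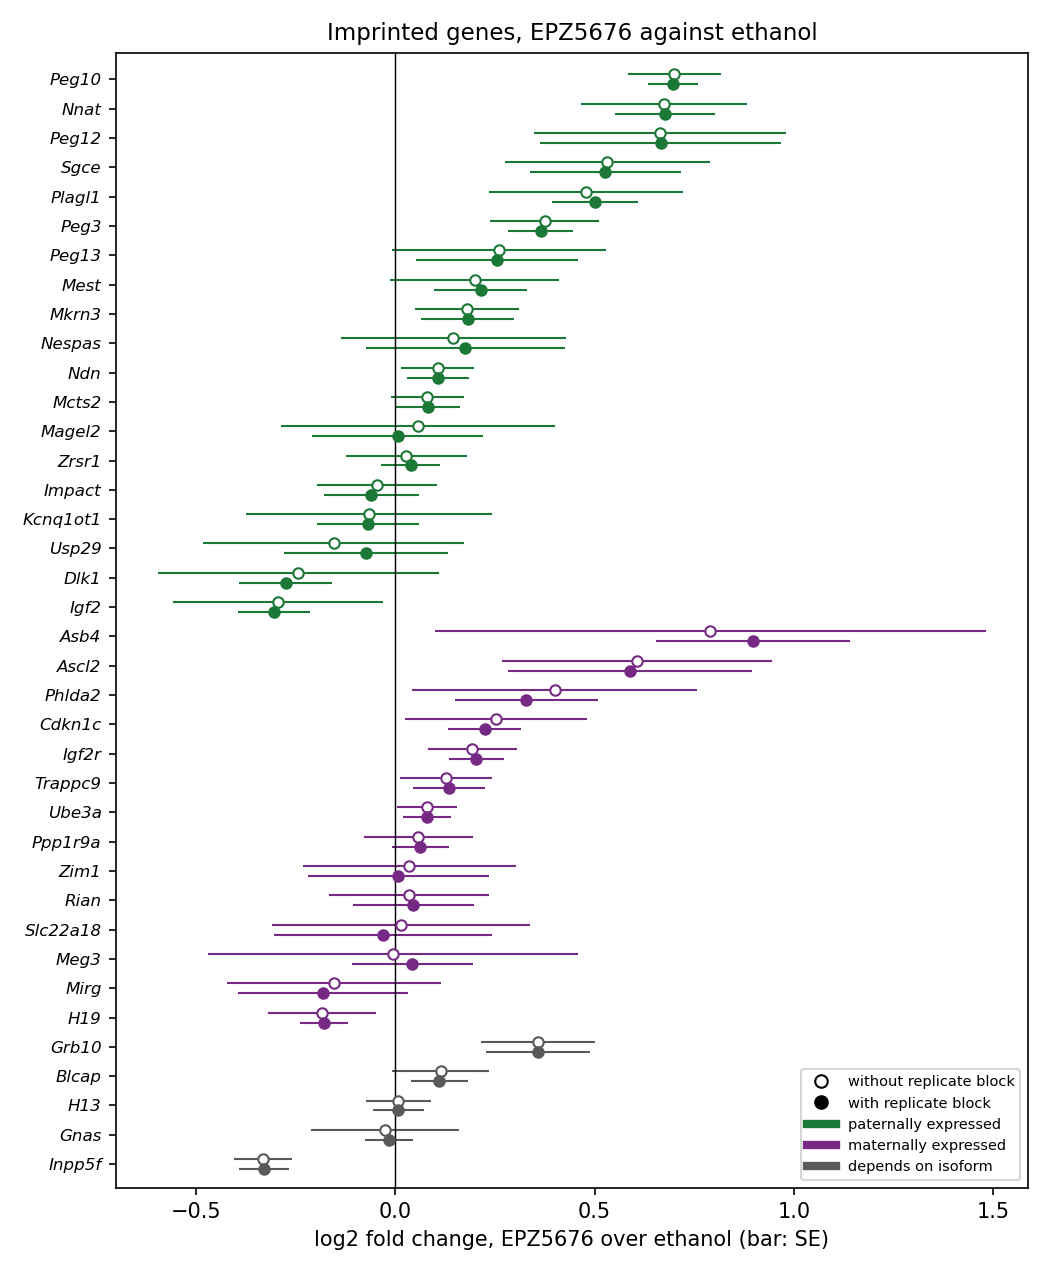
Log2 fold change of EPZ5676 over ethanol with its SE for the 38 tested members, in green for paternally expressed, purple for maternally expressed and grey for isoform-dependent genes. Open circles are the fit without the replicate block and filled circles the fit with it. Peg10 lies at 0.70 in both fits and Inpp5f at -0.33 in both.

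Peg10 was the member called in the blocked fit. It encodes a Gag-Pol-like protein derived from a retrotransposon and is needed for the placenta. Its level was 94.4, 80.3 and 105 CPM in EPZ5676 replicates 1, 2 and 3, against 58.6, 52.3 and 61.2 CPM in ethanol replicates 1, 2 and 3. The groups did not overlap, and replicate 2 was the lowest library in each. The log2 fold change was 0.70 ± 0.12 (SE), with an adjusted p of 0.454 in the unblocked edgeR quasi-likelihood test. With the block it was 0.70 ± 0.06, a 1.62-fold difference, and Peg10 rose at an adjusted p of 0.00983. Replicate pairs 1, 2 and 3 gave log2 differences of 0.68, 0.61 and 0.78. Without pair 1 the blocked call was lost (log2 fold change 0.70, adjusted p of 0.252), and over all alternatives the adjusted p ran from 2.29e-10 to 0.9995.

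The other members of the Peg10 cluster, on mouse chromosome 6, differed less or less evenly. Sgce encodes epsilon-sarcoglycan, a membrane glycoprotein, and starts next to Peg10 on the opposite strand. It measured 4.40, 6.53 and 5.99 CPM in EPZ5676 replicates 1, 2 and 3, against 3.76, 5.21 and 2.85 CPM in ethanol replicates 1, 2 and 3. The groups overlapped, and each EPZ5676 library exceeded the ethanol library of the same number. Its log2 fold change was 0.53 ± 0.26 (SE), and it passed neither edgeR quasi-likelihood fit (adjusted p of 0.68 unblocked and 0.204 blocked). Per kb of exon, the level of Sgce was 0.532 CPM under EPZ5676 and 0.371 CPM under ethanol, far below that of Peg10 in both groups.

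Asb4 encodes an adaptor of a ubiquitin ligase and is maternally expressed. It was at 6.65, 1.42 and 5.31 CPM in EPZ5676 replicates 1, 2 and 3, against 2.59, 0.560 and 4.27 CPM in ethanol replicates 1, 2 and 3. Replicate 2 was far below the others in both groups, so the spread between replicates exceeded the difference between groups. On the log2 scale the fold change was 0.79 ± 0.69 (SE) without the block and 0.90 ± 0.24 with it, and neither edgeR fit called it (adjusted p of 0.83 and 0.124). Ppp1r9a encodes neurabin-1, a scaffold that ties protein phosphatase 1 to actin. It was at 39.0, 33.3 and 43.1 CPM in EPZ5676 replicates 1, 2 and 3, against 37.5, 31.6 and 41.4 CPM in ethanol replicates 1, 2 and 3. The groups overlapped, and the log2 fold change of 0.06 ± 0.14 (SE) turned negative without EPZ5676 replicate 3 or ethanol replicate 2. All 4 tested members of the cluster were higher under EPZ5676 in each of the 3 replicate pairs. The same held for 14 of the 38 tested members and 19.5% of all genes. The opposite, lower in each pair, held for 5 of the 38 (Dlk1, Mirg, H19, Igf2 and Inpp5f) and 22.3% of all genes. Imprinted genes of the Peg10 region on the separate list below did not all follow. Tfpi2, Casd1, Pon2 and Pon3 were each lower under EPZ5676 in pair 2. Their log2 fold changes were -0.24, 0.31, 0.14 and -0.27.

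**Figure D3:**
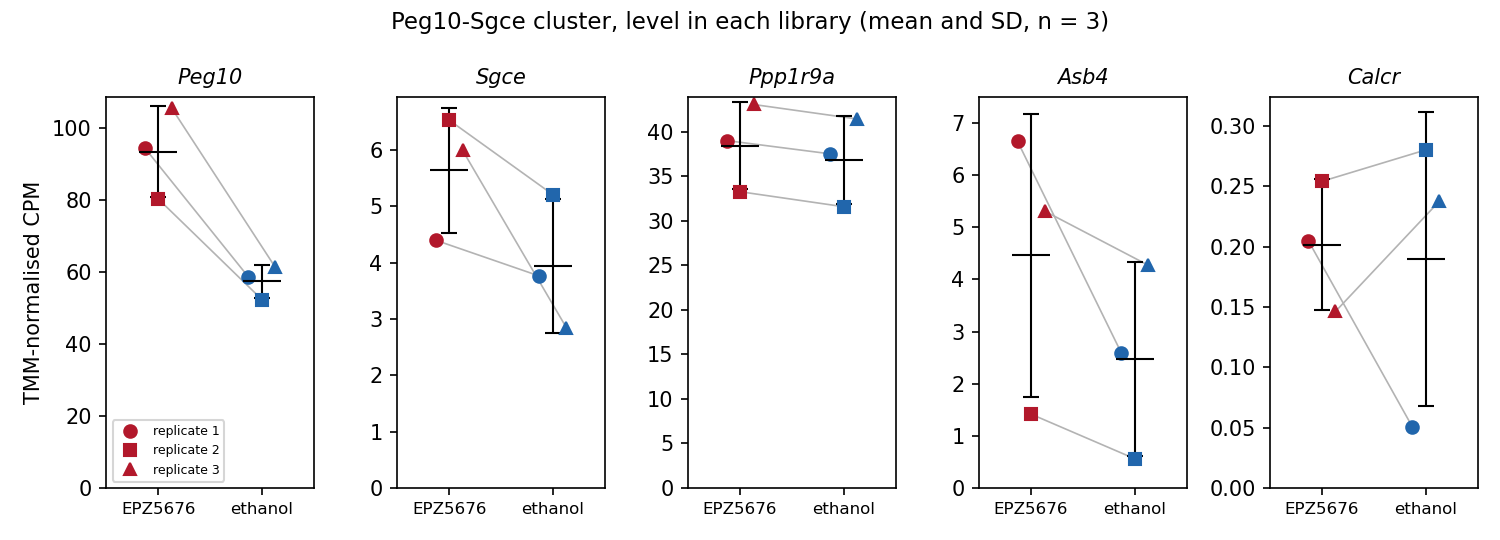
TMM-normalised CPM of the 5 members of the Peg10 cluster in each library, EPZ5676 left and ethanol right. Marker shape gives the replicate number, grey lines join equal numbers, and bars are mean and SD (n = 3). The 3 Peg10 values under EPZ5676 lie between 80.3 and 105 CPM, above the 3 under ethanol, while the groups of the other 4 genes overlap.

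Among the paternally expressed genes outside that cluster, Nnat, Plagl1 and Peg3 had the smallest p in the blocked fit. Nnat encodes neuronatin, a small membrane protein, and lies inside an intron of Blcap. It was at 15.6, 17.2 and 12.6 CPM in EPZ5676 replicates 1, 2 and 3, against 8.03, 12.5 and 8.07 CPM in ethanol replicates 1, 2 and 3. The lowest EPZ5676 library was only just above the highest ethanol library. The log2 fold change was 0.67 ± 0.21 (SE), with adjusted p of 0.596 and 0.0520 in edgeR without and with the block. Its host Blcap, a gene first described in bladder cancer, was at 57.7, 45.3 and 58.0 CPM in EPZ5676 replicates 1, 2 and 3, against 49.6, 45.4 and 53.5 CPM in ethanol replicates 1, 2 and 3. Its groups overlapped, and its log2 fold change was 0.11 ± 0.12 (SE). As the pair overlaps on the genome, and the use of strand in counting is not given, reads of the 2 genes may be shared.

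Plagl1 encodes a zinc finger transcription factor that acts on other imprinted genes. It measured 32.5, 38.1 and 26.4 CPM in EPZ5676 replicates 1, 2 and 3, against 20.6, 32.7 and 16.7 CPM in ethanol replicates 1, 2 and 3. Replicate 2 was highest in both groups, and ethanol replicate 2 overlapped the EPZ5676 libraries. On the log2 scale the fold change was 0.48 ± 0.24 (SE) without the block and 0.50 ± 0.11 with it, and edgeR did not call it (adjusted p of 0.701 and 0.0740).

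Peg3, a zinc finger gene of its own cluster, was at 57.9, 45.1 and 64.4 CPM in EPZ5676 replicates 1, 2 and 3, against 43.4, 39.9 and 45.5 CPM in ethanol replicates 1, 2 and 3. EPZ5676 replicate 2 fell within the ethanol range. The log2 fold change was 0.37 ± 0.14 (SE), and the gene passed neither edgeR fit (adjusted p of 0.63 and 0.0811 without and with the block). Usp29, the ubiquitin peptidase gene that starts from the other side of the short gap printed above, was at 2.85 ± 0.492 CPM under EPZ5676 and 3.12 ± 1.32 CPM under ethanol (SD, n = 3 each). Zim1, the maternally expressed zinc finger gene of the cluster, was at 1.43 ± 0.207 and 1.41 ± 0.332 CPM under EPZ5676 and ethanol. The difference between Peg3 and Usp29 in their response was not tested.

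The remaining paternally expressed genes were not called in either edgeR fit. In the Snrpn-Ube3a cluster, Ndn, which encodes the MAGE family protein necdin, averaged 30.8 ± 1.03 CPM under EPZ5676 and 28.6 ± 0.750 CPM under ethanol (SD, n = 3 each). Mkrn3, a ubiquitin ligase gene, was at 9.95 ± 0.437 and 8.79 ± 0.567 CPM, and Peg12, a FRAT family gene, at 1.01 ± 0.312 and 0.631 ± 0.0257 CPM, under EPZ5676 and ethanol in that order. The EPZ5676 libraries of these 3 genes lay above the ethanol libraries without overlap, as did those of 7.22% of all genes. Log2 fold changes of Ndn, Mkrn3 and Peg12 were 0.11 ± 0.09, 0.18 ± 0.13 and 0.66 ± 0.32 (SE). Magel2, another MAGE family gene, was at 1.74 ± 0.622 CPM under EPZ5676 and 1.72 ± 0.522 CPM under ethanol. Ube3a, the maternally expressed ubiquitin ligase gene of the same cluster, was at 104, 106 and 111 CPM in EPZ5676 replicates 1, 2 and 3, against 96.4, 108 and 99.8 CPM in ethanol replicates 1, 2 and 3. Its groups overlapped, and its log2 fold change was 0.08 ± 0.08 (SE).

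Groups overlapped for the further paternally expressed genes, except Mcts2. Mest, which encodes a hydrolase-fold protein, was at 21.4 ± 2.83 CPM under EPZ5676 and 18.7 ± 5.79 CPM under ethanol (SD, n = 3 each). Zrsr1, an RNA-binding protein gene related to U2AF, was at 37.9 ± 4.84 and 37.1 ± 6.36 CPM, and Impact, an inhibitor of the GCN2 pathway, at 19.3 ± 3.71 and 19.9 ± 1.18 CPM, under EPZ5676 and ethanol in that order. Mcts2 averaged 29.2 ± 0.527 CPM under EPZ5676 and 27.7 ± 0.793 CPM under ethanol. The antisense and non-coding RNAs Kcnq1ot1, Nespas and Peg13 averaged 11.2, 3.67 and 2.97 CPM under EPZ5676, against 11.8, 3.34 and 2.44 CPM under ethanol. Where strand was not used in counting, reads of such RNAs and of the genes they overlap cannot be told apart.

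The maternally expressed genes of loci methylated on the maternal copy were not called in either edgeR fit. Igf2r was at 428, 467 and 439 CPM in EPZ5676 replicates 1, 2 and 3, against 355, 462 and 349.8 CPM in ethanol replicates 1, 2 and 3. Ethanol replicate 2 stood with the EPZ5676 libraries and apart from the other ethanol libraries. On the log2 scale the fold change was 0.19 ± 0.11 (SE), with adjusted p of 0.737 and 0.187 in edgeR without and with the block. Cdkn1c encodes the cell cycle inhibitor p57. It was at 25.5, 36.3 and 20.1 CPM in EPZ5676 replicates 1, 2 and 3, against 21.7, 28.4 and 19.2 CPM in ethanol replicates 1, 2 and 3. The ranges overlapped widely, and the log2 fold change of 0.25 ± 0.23 (SE) became -0.02 without EPZ5676 replicate 2.

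Near Cdkn1c, Phlda2, which limits placental growth, averaged 5.66 ± 2.61 CPM under EPZ5676 and 4.36 ± 1.09 CPM under ethanol (SD, n = 3 each). Ascl2, a basic helix-loop-helix factor gene, was at 2.01 ± 0.702 and 1.33 ± 0.346 CPM, and Slc22a18, a solute carrier gene, at 0.812 ± 0.241 and 0.827 ± 0.147 CPM, under EPZ5676 and ethanol in that order. Trappc9, which encodes a subunit of a vesicle tethering complex, was at 23.9, 22.7 and 22.4 CPM in EPZ5676 replicates 1, 2 and 3, against 23.5, 19.3 and 20.3 CPM in ethanol replicates 1, 2 and 3. Ethanol replicate 1 stood with the EPZ5676 libraries, and the log2 fold change was 0.13 ± 0.12 (SE).

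Of the genes whose imprinting depends on the isoform, Inpp5f had the lowest log2 fold change of all tested members. It encodes an inositol phosphatase, and the counts pool its imprinted short transcript with the others. Its level was 94.2, 98.6 and 95.3 CPM in EPZ5676 replicates 1, 2 and 3, against 123, 114 and 126 CPM in ethanol replicates 1, 2 and 3. The libraries within each group lay close together, and the groups did not overlap. The log2 fold change was -0.33 ± 0.07 (SE), a 1.26-fold difference, with an adjusted p of 0.504 unblocked and 0.0546 blocked in edgeR's quasi-likelihood test.

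Grb10, an adaptor gene that dampens insulin receptor signalling, was at 23.5, 20.7 and 25.0 CPM in EPZ5676 replicates 1, 2 and 3, against 16.0, 21.2 and 16.9 CPM in ethanol replicates 1, 2 and 3. In pair 2 the groups were about level, and in pairs 1 and 3 EPZ5676 was higher, the pairs giving log2 values of 0.54, -0.03 and 0.56. Its log2 fold change was 0.36 ± 0.14 (SE), with adjusted p of 0.65 and 0.208 without and with the block. Gnas, which encodes a G protein alpha subunit, was at 105, 138 and 99.8 CPM in EPZ5676 replicates 1, 2 and 3, against 101, 151 and 97.7 CPM in ethanol replicates 1, 2 and 3. Replicate 2 was highest in both groups. H13, the signal peptide peptidase gene, was at 85.2, 90.7 and 91.3 CPM in EPZ5676 replicates 1, 2 and 3, against 87.1, 95.3 and 83.6 CPM in ethanol replicates 1, 2 and 3, with overlapping groups. Log2 fold changes of Gnas and H13 were -0.03 ± 0.19 and 0.01 ± 0.08 (SE), and both changed sign when single libraries were left out.

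The members in the Igf2-H19 and Dlk1-Meg3 clusters, methylated on the paternal copy, had their highest level in replicate 2 of both groups. Exceptions were Rian under EPZ5676 and Rtl1, which is too low to compare. Igf2, a fetal growth factor gene, was at 39.6, 68.2 and 40.7 CPM in EPZ5676 replicates 1, 2 and 3, against 58.7, 80.7 and 43.9 CPM in ethanol replicates 1, 2 and 3. H19 was at 112, 133 and 107 CPM in EPZ5676 replicates 1, 2 and 3, against 133, 157 and 111 CPM in ethanol replicates 1, 2 and 3. Replicate 2 was the highest library for both genes in both groups, and the groups overlapped. Log2 fold changes were -0.29 ± 0.26 (SE) for Igf2 and -0.18 ± 0.14 for H19, and edgeR called neither without the block (adjusted p of 0.832 and 0.791) or with it (0.147 and 0.184). H19, the highest member per kb, is also the host of a microRNA, which these poly(A) libraries do not measure. Its mature forms, from RefSeq on GRCm38.p6, are given 5′ to 3′ with the seed (bases 2 to 8) in capitals.
mmu-miR-675-5p (chr7:142577112-142577133, minus strand): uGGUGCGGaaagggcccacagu
mmu-miR-675-3p (chr7:142577078-142577099, minus strand): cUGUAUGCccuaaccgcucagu

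Dlk1, a Notch-ligand-like gene, measured 13.1, 20.1 and 8.33 CPM in EPZ5676 replicates 1, 2 and 3, against 13.5, 24.4 and 12.0 CPM in ethanol replicates 1, 2 and 3. Its log2 fold change of -0.24 ± 0.35 (SE) became positive without EPZ5676 replicate 3 or ethanol replicate 2, and edgeR did not call it without or with the block (adjusted p of 0.902 and 0.258). Meg3, the long non-coding RNA of the cluster, was at 7.82, 19.1 and 11.5 CPM in EPZ5676 replicates 1, 2 and 3, against 7.73, 23.4 and 8.16 CPM in ethanol replicates 1, 2 and 3. Replicate 2 was thus 1.98 times the mean of replicates 1 and 3 under EPZ5676, and 2.94 times under ethanol. The log2 fold change of Meg3 was -0.01 ± 0.46 (SE) without the block and 0.04 ± 0.15 with it. Rian, which hosts small nucleolar RNAs, averaged 12.1 ± 0.906 CPM under EPZ5676 and 11.9 ± 3.45 CPM under ethanol, and Mirg, which hosts microRNAs, 1.55 ± 0.393 and 1.76 ± 0.255 CPM (SD, n = 3 each).

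All 6 tested members of these clusters (Igf2, H19, Dlk1, Meg3, Rian and Mirg) were higher in replicate 2 than in the mean of replicates 1 and 3 in both groups, as were 13 of the 32 tested members of maternally methylated loci and 35.8% of all genes. The excess was at least 1.5-fold in both groups for 3 of the 6 and for 1 of the 32, against 3.92% of all genes. The split of log2 fold changes by the methylated copy was not planned in advance. Of the 6, 1 had a positive log2 fold change, and their median was -0.17. Of the 32, 27 were positive, and their median was 0.14. Without ethanol replicate 2 the first median was 0.05, and without both replicate 2 libraries it was -0.20. The 6 are not all the genes of paternally methylated loci. On the separate list below, Rasgrf1, Dio3 and Dio3os had positive log2 fold changes (0.69, 0.29 and 0.20), and Begain a negative one (-0.15). The summed fibroblast markers given above were likewise highest in both replicate 2 libraries, and 20 of 24 tested fibroblast markers had a negative log2 fold change (median -0.24, none called). The part of fibroblast RNA in these values was not tested.

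**Figure D4:**
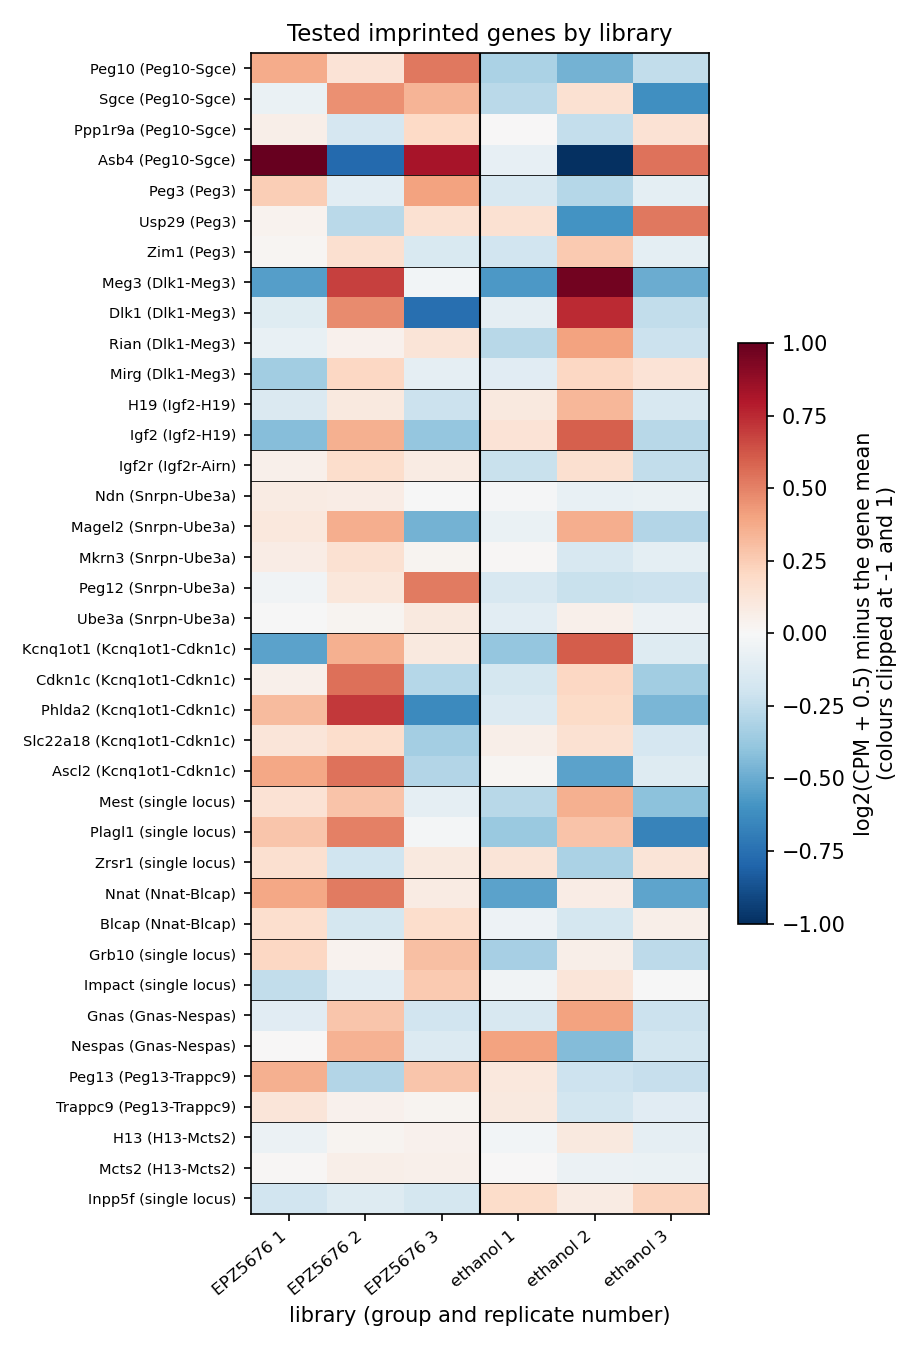
Deviation of each tested member from its own mean in log2(CPM + 0.5), by library, with EPZ5676 left of the black line and ethanol right of it, and clusters parted by thin lines. Peg10 is above its mean in all 3 EPZ5676 libraries, while Meg3, Dlk1 and Igf2 are above theirs in replicate 2 of both groups.

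Other imprinted genes were examined as a separate list of 65 symbols, of which 56 were in the table and 43 were tested. EdgeR called 0 of the 43 in either fit, with 23 log2 fold changes positive and 20 negative, and a median of 0.02. The smallest p belonged to Sfmbt2, a paternally expressed Polycomb-related gene, at 214, 218 and 228 CPM in EPZ5676 replicates 1, 2 and 3, against 253, 272 and 273 CPM in ethanol replicates 1, 2 and 3. The groups did not overlap, and its log2 fold change was -0.27 ± 0.07 (SE; adjusted p of 0.558 unblocked and 0.0546 blocked). Nap1l5, a paternally expressed retrogene related to histone chaperones, averaged 2.02 ± 0.134 CPM under EPZ5676 and 1.05 ± 0.184 CPM under ethanol (SD, n = 3 each), a log2 fold change of 0.94 ± 0.24 (SE). Slc38a4, an amino acid transporter gene, and Rasgrf1, a Ras exchange factor gene, had log2 fold changes of 0.31 ± 0.10 and 0.69 ± 0.27 (SE). Adjusted p in edgeR for Nap1l5, Slc38a4 and Rasgrf1 ran from 0.591 to 0.65 unblocked, and from 0.0774 to 0.136 blocked.

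Genes that set, protect or read imprints were a list of 35 symbols, 31 of them tested, with 22 log2 fold changes positive, 9 negative and a median of 0.07. EdgeR called 0 of them in either fit. Dppa3, which shields imprints from demethylation in the early embryo, was at 36.7, 31.0 and 35.4 CPM in EPZ5676 replicates 1, 2 and 3, against 24.7, 20.4 and 28.3 CPM in ethanol replicates 1, 2 and 3. The groups did not overlap, and the log2 fold change was 0.48 ± 0.14 (SE; adjusted p of 0.596 unblocked and 0.0518 blocked). Dnmt1, the maintenance DNA methyltransferase gene, averaged 829 ± 39.7 CPM under EPZ5676 and 733 ± 31.6 CPM under ethanol (SD, n = 3 each). Zfp42, a Yy1-related zinc finger gene, and Ctcfl, a relative of the insulator gene Ctcf, had log2 fold changes of 0.30 ± 0.10 and 0.48 ± 0.19 (SE), and Dnmt1 one of 0.18 ± 0.07. The adjusted p of these 3 genes in edgeR ran from 0.596 to 0.653 without the block and from 0.132 to 0.204 with it.

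Genes derived from retrotransposon Gag or protease sequences, the wider family of Peg10, were a list of 29 symbols. Of these, 15 were in the table and 9 were tested, with 7 log2 fold changes positive, 2 negative and a median of 0.08. EdgeR called 0 in either fit. Ldoc1l, listed today as Rtl6, averaged 10.7 ± 0.776 CPM under EPZ5676 and 8.60 ± 1.37 CPM under ethanol (SD, n = 3 each), a log2 fold change of 0.32 ± 0.16 (SE; adjusted p of 0.689 unblocked and 0.262 blocked). Pnma3, Pnmal1 and Asprv1 had log2 fold changes of 0.19 ± 0.44, -0.30 ± 0.43 and 0.22 ± 0.48, each of which changed sign without single libraries. Of 10 tested genes that share expression patterns with Peg3 and are no members, the Peg3 network list, 6 had a positive log2 fold change and 4 a negative one (median 0.04), and edgeR called 0 in either fit. Dot1l, the gene of the inhibited enzyme, had a log2 fold change of 0.27 ± 0.12 (SE; adjusted p of 0.668 in edgeR without the block and 0.177 with it).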

How the data were processed

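RNA was extracted with TRIzol and made into stranded poly(A) libraries, per the labels' protocols. The authors deposited whole-number counts per gene symbol. The tools named in the submitters' processing notes are Bowtie, STAR, featureCounts and edgeR, with mm9 as the build. Settings, annotation and use of strand in counting: not given in the sources used here. A second deposited table, of repeat families, was not used.

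Counts were analysed in R 4.3.3 with edgeR 4.0.16 (filterByExpr, TMM, quasi-likelihood test, 2-sided, Benjamini-Hochberg over 14855 genes, threshold 0.05). Alternatives used DESeq2 1.42.0, limma 3.58.1 (voom), other scalings and filters, and left-out libraries. The tests were checked on simulated counts. As a check of pairing, deviations from the group means were correlated between libraries of equal number. This gave 0.411, 0.614 and 0.335 for the 3 numbers, all over the bound of 0.1. Unequal numbers also passed it, with 0.278 for EPZ5676 replicate 1 and ethanol replicate 3, and 0.149 for EPZ5676 replicate 3 and ethanol replicate 1. Replicate 2 correlated negatively with replicates 1 and 3 of the other group. Deviations from a group mean cancel out within the group, so a positive correlation of a library forces negative ones beside it. The negative values are therefore no separate evidence. The check thus sets replicate 2 apart and hardly tells whether replicates 1 and 3 are matched by number. No label says what the numbers stand for. Values with the replicate block therefore stand beside the unblocked ones. Residual degrees of freedom were 2 blocked and 4 unblocked. Pair differences used CPM + 0.5. All pairs of libraries differed beyond sampling noise (chi-square per degree of freedom 3.63 or more).

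Exon lengths came from GENCODE M21 (GRCm38), merged over isoforms, for all 42 members. Its build is not mm9, so no gene coordinates are given, and sequences carry GRCm38.p6 coordinates. Members and lists were chosen with earlier results of these data known. Values in full were given for the Peg10 cluster, members called or at an unadjusted p under 0.05 in either fit with at least 1 CPM, and the highest member of each cluster; from the other lists, called genes and the 4 of smallest p. Meg3 was given in full outside this rule, after its values were seen.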

Additional observations from a re-analysis of the deposited data

How the results depend on the processing

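Over all genes the unblocked edgeR fit called 0, as did the RLE, library-total, unfiltered, CPM-filtered and limma-voom fits and each of the 6 fits that left out 1 library (range 0 to 0). Calls over all genes, and members among them, were 97 and 1 with the replicate block, 50 and 1 with DESeq2, 293 and 5 with DESeq2 and the block, 29 and 1 with limma-voom and the block (chosen after seeing the data), and 10 and 1 without both replicate 2 libraries. With the block and one pair left out they ranged from 0 to 795 and from 0 to 8, with 0 and 0 without pair 1, 795 and 8 without pair 2, and 761 and 6 without pair 3. The log2 fold change of Peg10 was 0.70 with the replicate block, 0.70 with DESeq2, 0.70 with DESeq2 and the block, 0.70 with limma-voom and the block, 0.74 without both replicate 2 libraries, and 0.70, 0.74 and 0.65 with the block and without pairs 1, 2 and 3. It was called in these fits except the one without pair 1, and ranged from 0.60 to 0.80, uncalled, when 1 library was left out. In edgeR with all libraries the block changed no other member's call. DESeq2 with the block also called Nnat, Plagl1, Peg3 and Inpp5f. The blocked edgeR fit called Nnat, Plagl1, Inpp5f and Asb4 beside Peg10 both without pair 2 and without pair 3, and further Peg3, Grb10 and Igf2r without pair 2 and Igf2 without pair 3.

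Meg3 and Slc22a18 were not followed through the alternatives. Their log2 fold changes were -0.0065 and 0.0132 without the block, and 0.0423 and -0.0304 with it. Of the genes that were followed, these changed sign, as ranges of the log2 fold change over 1 left-out library: Ppp1r9a -0.0465 to 0.15, Dlk1 -0.63 to 0.14, Cdkn1c -0.0159 to 0.43, Gnas -0.19 to 0.20, H13 -0.0332 to 0.058, Pnmal1 -0.68 to 0.0641, Asprv1 -0.11 to 0.56 and Pnma3 -0.0762 to 0.59. H13 was also at -0.0046 with library totals and -0.0503 with the block without pair 3. Gnas was at 0.0187 with limma-voom, 0.0401 without both replicate 2 libraries and 0.0399 with the block without pair 2, and Pnma3 at -0.13 without both replicate 2 libraries and at -0.17 and -0.16 with the block without pairs 1 and 2. The cause was not tested. Fits without 1 pair and with the block have 1 residual degree of freedom. The split by the methylated copy was not planned in advance. Medians of the members at paternally methylated loci ran from -0.41 to 0.05 over 1 left-out library. Those of the members at maternally methylated loci ran from 0.12 to 0.22. Calcr, Airn and Rtl1 gave 14 counts or fewer in each library, too few to compare. Airn overlaps Igf2r, and Rtl1 overlaps Meg3 and Rian, and the part of shared reads in these counts was not tested.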
